A study of Mus musculus with 6 samples.

Results

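The 59 genes described here encode ion channels, their associated subunits and sensors, and purinergic receptors, as measured by RNA-seq in leukemia cells of mice with and without Phf6. They were chosen by symbol, from the protein-coding potassium, TRP, voltage-gated calcium, ClC chloride, Orai, Stim, Hvcn1, Piezo, P2X and P2Y genes, and by a summed count of at least 60 over the 6 libraries. Of 175 such genes in a table of 54532, 116 fell below that minimum, 52 of them with no count in any library. The minimum uses the sum of both groups, so a gene of low level could reach it through 1 group alone. Of the members called changed below, Kcnk7, Kcnk12, Kcnj2, Cacna1e and Cacnb3 reached it mainly through the libraries without Phf6, where they were higher. Kcna3, Kcnmb1 and Trpm5 reached it mainly through the libraries with intact Phf6. For these genes the minimum and the direction of change are not independent. P2rx5, with 60 counts, and Kcnk12, with 64, lay just inside it. Kcna4, with 56 counts (0, 0 and 0 in the libraries with intact Phf6, 12, 20 and 24 in those without), and Cacna2d2, with 51 (14, 19 and 11 against 6, 0 and 1), lay just outside.

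Both groups were GFP+ leukemia cells from mice given fetal liver Lin- cells that carried a RUNX1-ETO9a (RE9a) and GFP retrovirus, a truncated form of the RUNX1-ETO fusion of human acute myeloid leukemia. The 3 libraries called WT Phf6,RE9a came from Phf6 fl/y cells, and the 3 called VC Phf6,RE9a came from Vav1-Cre;Phf6 fl/y cells, in which Cre is driven by a promoter active in blood cells. Donors and recipients were male, and both groups carried the floxed Phf6 allele and RE9a. No label states if the 3 libraries per group were taken from different mice or different leukemias, so the p-values measure the spread between these libraries only. Below, WT and VC stand for these groups, and counts are given in the order of WT replicates 1, 2 and 3 and VC replicates 11, 12 and 13.

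Ion channels set the membrane potential and let calcium into blood cells. Potassium channels draw the membrane potential negative, which favours calcium entry through store-operated channels, in which Stim proteins of the endoplasmic reticulum sense store depletion and open Orai pores in the plasma membrane. ClC proteins carry chloride or exchange it for protons, largely in endosomes and lysosomes. P2X receptors are cation channels opened by extracellular ATP, and P2Y receptors are G protein-coupled receptors for nucleotides and related ligands.

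The libraries held 15675358 to 16817994 counts, and Phf6 itself, at 1044, 827 and 1142 counts in WT, was at 388, 314 and 331 in VC (log2 fold change -1.66 ± 0.13 SE, edgeR adjusted p = 9.32e-05), a gene-level count that does not separate the floxed exons from the rest. WT replicate 3 stood nearest to the VC mean for 53.4% of the 6260 genes that changed and for 24 of the 38 members that did. Markers of several cell types differed between the groups. Mast cell and basophil markers were abundant and 9 of 10 were lower in VC (summed level 17222 to 27340 CPM, counts scaled to sequencing depth, in WT and 4698 to 5175 in VC), while 8 of 8 neutrophil markers (143 to 441 against 907 to 3464 CPM) and 9 of 9 erythroid markers (1498 to 2274 against 5269 to 6250 CPM) were higher. Of 7 immature myeloid markers, 3 were higher and 3 lower (2273 to 3645 against 450 to 704 CPM), and Kit, the stem cell factor receptor, was at 2420 CPM in WT and 273 CPM in VC. In WT the pan-leukocyte gene Ptprc averaged 22.7 CPM and the myeloid integrin gene Itgam 2.37 CPM, against 6749 CPM for the mast cell protease gene Cpa3. Of the megakaryocyte and platelet markers tested, 3 of 5 were lower and 1 was higher (257 to 388 against 41.2 to 46.1 CPM), with Gp1bb at 0. B cell markers stayed low but 4 of 4 tested were higher (0.611 to 1.10 against 9.03 to 26.9 CPM), as were 1 of 2 T cell, 3 of 5 eosinophil, 2 of 8 macrophage and 1 of 3 dendritic cell markers. Beside these marker counts, 21.5% of all genes tested were higher and 22.7% lower. The macrophage share, 25%, was near that of all genes, and the T cell and dendritic cell shares rest on 1 call each. Whether these markers have a part in any result below was not tested, and in such bulk samples fewer cells of a type and less RNA per cell cannot be told apart.

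Loss of Phf6 went with changes in both directions across these families. Of 58 members with enough counts to test (Kcnh7 was not tested), 19 were higher in VC, against 21.5% of all 14169 genes tested, and 19 were lower, against 22.7%. Together these 38 were 65.5% of the members, where 44.2% of all genes passed the same test, edgeR's quasi-likelihood test at a Benjamini-Hochberg adjusted p under 0.05, from which every adjusted p below also comes unless another is named. A change of at least 2-fold was seen for 12 higher and 15 lower members, against 21.4% of all genes in either direction. The counts scaled to library size did not overlap between the groups for 41 of the 58, against 57.3% of all genes. The median log2 fold change of the members was 0.11, beside 0.013 for all genes. Among the 30 members with a mean level of at least 5 FPKM (fragments per kilobase of transcript, scaled to sequencing depth), 10 were higher and 11 lower, and 7 of the lower but 3 of the higher ones passed 2-fold. Among the 28 tested members under that level, 9 higher and 8 lower ones passed 2-fold.

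**Figure D1:**
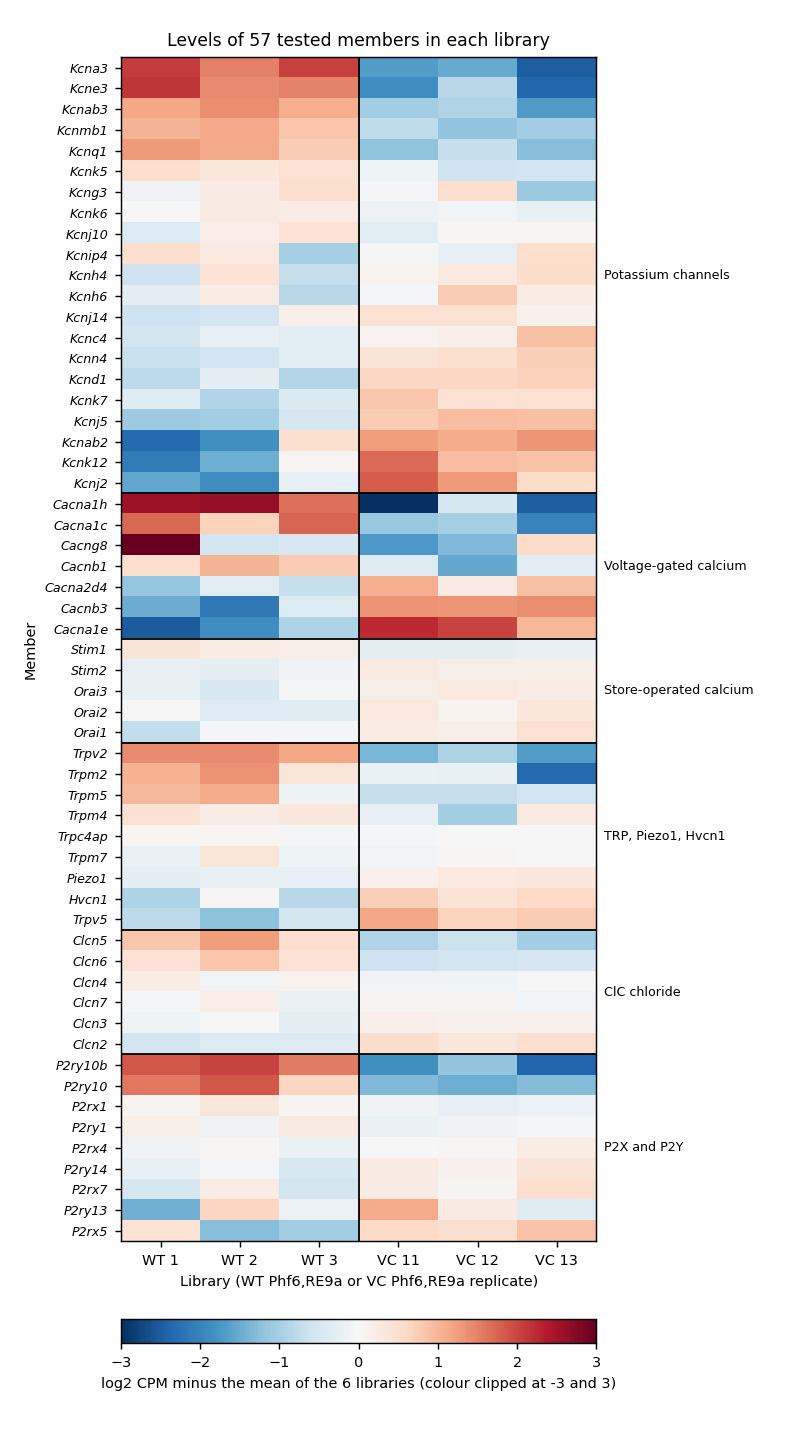
Each row is 1 of 57 tested members, grouped by family, and each column is 1 library. Colour gives the log2 CPM minus that gene's mean over the 6 libraries, clipped at -3 and 3, so red is above and blue below the mean. The line marks the border between the 3 WT and the 3 VC libraries. WT replicate 3 has a paler colour than its group in Kcnab2, Kcnk12 and Kcnj2, and a single dark cell in Cacng8 is WT replicate 1.

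**Figure D2:**
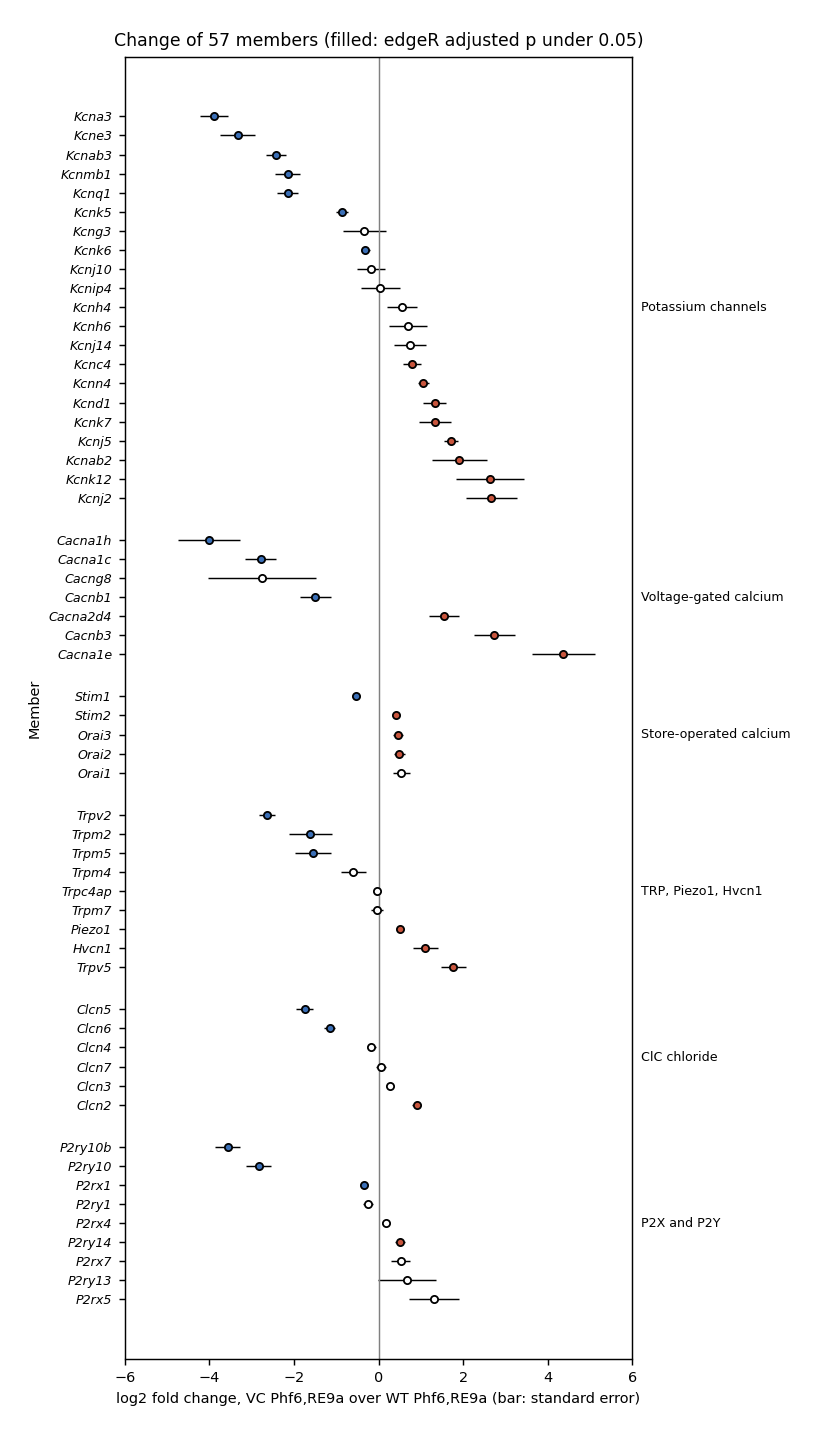
The log2 fold change of VC over WT (horizontal axis) with its standard error is drawn for 57 members by family. Filled points are the 19 higher (red) and 19 lower (blue) members with an adjusted p under 0.05, and open points are the other 19. Changes run from -4.00 for Cacna1h to 4.37 for Cacna1e.

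Among potassium channels, 8 of 22 tested members rose and 7 fell, together 68.2% beside 44.2% of all genes. The most abundant, Kcnn4, the calcium-activated channel KCa3.1 of blood cells, had 1888, 1938 and 2543 counts in WT and 4352, 4645 and 5409 in VC. All VC libraries lay above all WT libraries, a 2.08-fold higher level (log2 fold change 1.06 ± 0.12 SE, adjusted p = 0.000497). Per length, Kcnn4 went from 26.4 ± 3.01 to 54.6 ± 6.31 FPKM (SD, n = 3), and its share of the summed FPKM of the 18 potassium pores went from 26.9% to 40.8%. That sum was 98.1 ± 5.53 FPKM in WT and 134 ± 14.2 in VC.

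Of the voltage-gated potassium pores, 2 fell and 2 rose among 8 tested, which is 50% beside 44.2% of all genes. Kcna3, which encodes Kv1.3, the channel known for setting the membrane potential of T cells, had 261, 165 and 270 counts in WT and 19, 22 and 10 in VC, 14.7-fold lower (log2 fold change -3.88 ± 0.33 SE, adjusted p = 0.000132). Kcnq1, the Kv7.1 pore of heart and epithelia, had 267, 234 and 199 against 51, 75 and 48 counts (-2.14 ± 0.25 SE, adjusted p = 0.000482). For both, the lowest WT library exceeded the highest VC library by more than 2-fold. Kcnc4, of the Shaw-related Kv3 family and the most abundant of this role at 24.8 FPKM over all libraries, had 915, 1090 and 1137 counts in WT and 1591, 1651 and 2691 in VC. The groups did not overlap, with VC replicate 13 the highest (0.79 ± 0.21 SE, adjusted p = 0.0180), and the call was lost without WT replicate 1 (adjusted p = 0.0636). Kcnd1, an A-type Kv4 pore, had 23, 32 and 23 counts against 71, 71 and 74 (1.33 ± 0.27 SE, adjusted p = 0.00622). Kcnh4, Kcnh6 and Kcng3 did not pass, lay between -0.33 and 0.69 on the log2 scale and overlapped between groups, though Kcnh4 was higher at an adjusted p of 0.0254 without WT replicate 2. Kcnh7, too low for the main test, had 0, 3 and 7 counts in WT and 42, 23 and 7 in VC, and was called higher in DESeq2, with no count filter, and without WT replicate 3 or VC replicate 13.

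Of the 4 subunits that associate with these pores, 1 rose and 2 fell, which is 75% beside 44.2% of all genes. Kcne3, a single-span subunit known to partner Kcnq1, had 498, 285 and 336 counts in WT and 32, 68 and 22 in VC, a 10.02-fold lower level (log2 fold change -3.32 ± 0.41 SE, adjusted p = 0.000651). Kcnab3, a cytoplasmic beta subunit of Kv1 channels, had 312, 351 and 319 against 73, 81 and 45 counts (-2.43 ± 0.24 SE, adjusted p = 0.000232). Kcna3, Kcnq1, Kcne3 and Kcnab3 each had every VC library below every WT library, while Kcnc4, Kcnd1 and Kcnab2 had every VC library above. These were 7 of the 12 tested voltage-gated potassium pores and subunits (58.3%), near the 57.3% of all genes whose groups did not overlap. Kcnab2, another Kv1 beta subunit, had 180, 240 and 1346 counts in WT and 2359, 2187 and 2453 in VC, higher by 1.91 ± 0.64 SE on the log2 scale (adjusted p = 0.0441). Its WT replicate 3 held more than 5 times the counts of the other two, and the difference was 3.29 (adjusted p = 9.22e-05) without it. The call was lost without any other library (adjusted p from 0.0856 without WT replicate 1 to 0.100 without WT replicate 2) and in DESeq2 (adjusted p = 0.0591). Kcnip4, a calcium-binding Kv4 partner, did not pass (0.045, adjusted p = 0.949).

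Kcnmb1, the beta1 subunit of large-conductance calcium-activated channels, fell from 48, 50 and 45 counts in WT to 14, 10 and 11 in VC (log2 fold change -2.15 ± 0.30 SE, adjusted p = 0.00104). The pore gene it is known to serve, Kcnma1, had no count in any library and so was not among the members. Among inward rectifiers, Kcnj5, a G protein-gated pore and the most abundant of its role, had 381, 386 and 617 counts in WT and 1529, 1729 and 1668 in VC, 3.28-fold higher (1.72 ± 0.16 SE, adjusted p = 0.000191). Kcnj2, which encodes the classical inward rectifier Kir2.1, had 3, 2 and 11 counts against 54, 37 and 21 (2.67 ± 0.61 SE, adjusted p = 0.00976), and 3.66 without WT replicate 3, the WT library closest to VC. Kcnj10 (-0.18) and Kcnj14 (0.73) did not pass, and 30.8% of the 50-base words of Kcnj14 also occur in the predicted gene Gm5522, so the Kcnj14 count is uncertain. Gm5522 itself had a summed count of 1.

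Of the 4 two-pore-domain potassium channel members, which give a background leak, 2 rose and 2 fell, 100% beside 44.2% of all genes. The 2 that rose, Kcnk7 and Kcnk12, reached the count minimum mainly through VC, so no pattern by level is read from these members. Kcnk5, the most abundant at 22.1 ± 1.48 FPKM in WT and 12.1 ± 2.35 in VC (SD, n = 3), had 1230, 1039 and 1274 counts against 867, 630 and 632. No VC library reached the lowest WT library (log2 fold change -0.86 ± 0.14 SE, adjusted p = 0.00231). Kcnk6, with 621, 713 and 790 against 614, 663 and 591 counts, was lower by a small margin (-0.31 ± 0.11 SE, adjusted p = 0.0448) that was lost in DESeq2 (adjusted p = 0.0645) and without any library but WT replicate 1 (adjusted p from 0.0791 to 0.140). It was also lost with no count filter (adjusted p = 0.0767), with at least 10 counts in every library (0.0528) and with total counts as the scale, where the difference was -0.17 (adjusted p = 0.305). Kcnk7 rose from 7, 4 and 7 to 20, 15 and 15 counts (1.33 ± 0.38 SE, adjusted p = 0.0239), a call lost in DESeq2 (adjusted p = 0.124), with no count filter (0.0702) and without any 1 library (adjusted p 0.0542 to 0.0974). Kcnk12, with 0, 1 and 7 against 27, 15 and 14 counts, was higher by 2.64 ± 0.80 SE (adjusted p = 0.0300). Without WT replicate 3 this was 4.75 (adjusted p = 0.00748), and the call was lost without WT replicate 1 or 2 or VC replicate 11 or 12 (adjusted p 0.0614 to 0.103).

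The window before the start of Kcnn4 is shown because it held the most matches to TGTGGT, the core sequence bound by RUNX factors, of any member window. It is the 250 bases before the start, chr7:24370013-24370262 of GRCm38.p6, plus strand, from RefSeq, 5′ to 3′, with TGTGGT and its reverse complement ACCACA in capitals.
Kcnn4: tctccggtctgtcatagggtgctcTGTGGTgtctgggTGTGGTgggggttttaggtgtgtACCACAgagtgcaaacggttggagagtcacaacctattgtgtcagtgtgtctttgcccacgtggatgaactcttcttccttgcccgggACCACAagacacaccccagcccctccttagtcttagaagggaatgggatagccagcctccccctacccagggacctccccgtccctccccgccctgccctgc
The 4 matches begin 226, 213, 190 and 102 bases before the start, and 0.0304% of all RefSeq windows of this length held 4 or more. As the window was picked for its matches, this share is a description only. At least 1 match on either strand was in 4614 of all 32851 windows and in 12 (17.4%) of the 69 windows of the 48 members with an entry, that is in 22.7% of windows of members that rose, 4 of 25 windows of those that fell and 13.6% of those that did not pass.

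Of the 7 voltage-gated calcium channel members, 3 rose and 3 fell, each by at least 2-fold. That was 85.7%, where 44.2% of all genes passed the test and 21.4% of all genes passed it with at least 2-fold. The pore-forming subunits, alpha1, carry the calcium current, and the beta, alpha2delta and gamma subunits set their trafficking and gating. Cacna1h, a T-type low-voltage-activated pore (Cav3.2), had 3408, 3451 and 1979 counts in WT and 42, 458 and 113 in VC. Every WT library lay above every VC library, a 15.99-fold lower level in VC (log2 fold change -4.00 ± 0.73 SE, adjusted p = 0.00378). VC replicate 12 held the most of its group, and without it the difference was -5.38 (adjusted p = 0.000892). Cacna1c, an L-type pore (Cav1.2), had 3503, 1592 and 3818 against 527, 583 and 283 counts, 6.92-fold lower (-2.79 ± 0.36 SE, adjusted p = 0.000749). WT replicate 2 was the low library for Cacna1c and WT replicate 3 for Cacna1h, so Cacna1h over Cacna1c in FPKM ranged from 1.13 to 4.71 in WT and from 0.173 to 1.71 in VC. Summed over the 3 alpha1 members, the level was 28.4 ± 5.24 FPKM in WT and 2.58 ± 1.59 in VC (SD, n = 3).

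The third alpha1 gene went the other way at a far lower level. Cacna1e, an R-type pore (Cav2.3), had 0, 1 and 4 counts in WT and 53, 46 and 21 in VC (log2 fold change 4.37 ± 0.74 SE, adjusted p = 0.00262), and 5.84 without WT replicate 3. Its level stayed at 0.0921 FPKM in VC, and limma on log2(FPKM + 1) did not call it (0.12, adjusted p = 0.155). A fitted fold change with 5 WT counts in all depends on the prior count.

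Of the calcium channel subunits, Cacnb3 rose from 6, 3 and 16 counts to 60, 60 and 62 (log2 fold change 2.74 ± 0.48 SE, adjusted p = 0.00307), and by 3.54 without WT replicate 3. Cacnb1, another beta subunit, went from 69, 94 and 88 counts down to 39, 17 and 41 (-1.49 ± 0.37 SE, adjusted p = 0.0132). The mean levels per length exchanged rank, Cacnb1 going from 1.18 ± 0.205 to 0.416 ± 0.172 FPKM and Cacnb3 from 0.129 ± 0.0982 to 0.880 ± 0.0193 (SD, n = 3). Cacna2d4, an alpha2delta subunit, rose from 17, 30 and 26 to 97, 54 and 83 counts (1.55 ± 0.35 SE, adjusted p = 0.00915). Cacng8, a gamma subunit known as an AMPA receptor partner in neurons, had 208, 10 and 12 counts against 4, 6 and 27. Its mean difference (-2.76, adjusted p = 0.116) rested on WT replicate 1, and it was 0.046 (adjusted p = 0.972) without that library. Apart from that library, all 4 subunits stayed under 100 counts in every library.

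In store-operated calcium entry the sensors moved in opposite directions. Stim1 had 4123, 3524 and 3767 counts in WT and 2859, 2836 and 2926 in VC, with no overlap (log2 fold change -0.53 ± 0.088 SE, adjusted p = 0.00237). Stim2, which is known to respond to smaller falls in store calcium, had 596, 561 and 697 against 940, 884 and 869 counts (0.42 ± 0.089 SE, adjusted p = 0.00737). Neither call was lost on leaving out any library. The ratio of Stim1 to Stim2 in FPKM was 3.42, 3.11 and 2.67 in WT and 1.51, 1.59 and 1.67 in VC, so all WT libraries lay above all VC libraries and Stim1 remained the more abundant sensor.

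The 3 Orai pores had higher mean levels in VC, and 2 of them (66.7%, beside 44.2% of all genes) passed the test. Orai3, the most abundant at 22.7 ± 3.38 FPKM in WT and 31.0 ± 1.26 in VC (SD, n = 3), had 759, 611 and 928 counts against 1098, 1198 and 1129 (log2 fold change 0.46 ± 0.12 SE, adjusted p = 0.0168). Orai2 had 1642, 1185 and 1344 against 2190, 1944 and 2236 counts (0.48 ± 0.13 SE, adjusted p = 0.0185). Orai1, the pore of the classical calcium release-activated current, had 189, 290 and 326 against 406, 396 and 472 counts. Its groups did not overlap, but it missed the threshold (0.54 ± 0.20 SE, adjusted p = 0.0609) and passed it in DESeq2 (adjusted p = 0.0475) and with total counts as the scale (0.68, adjusted p = 0.0321). The Orai2 call was lost without WT replicate 3, VC replicate 11 or VC replicate 13 (adjusted p 0.0534, 0.0621 and 0.0647), and the Orai3 call without VC replicate 12 or 13 (0.0618 and 0.0509). Within the summed Orai level, 44.8 ± 3.56 FPKM in WT and 62.1 ± 1.85 in VC, the shares were nearly level, Orai3 making up 50.5% and 49.97%, Orai2 32.7% and 32.7%, and Orai1 16.8% and 17.3%.

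**Figure D3:**
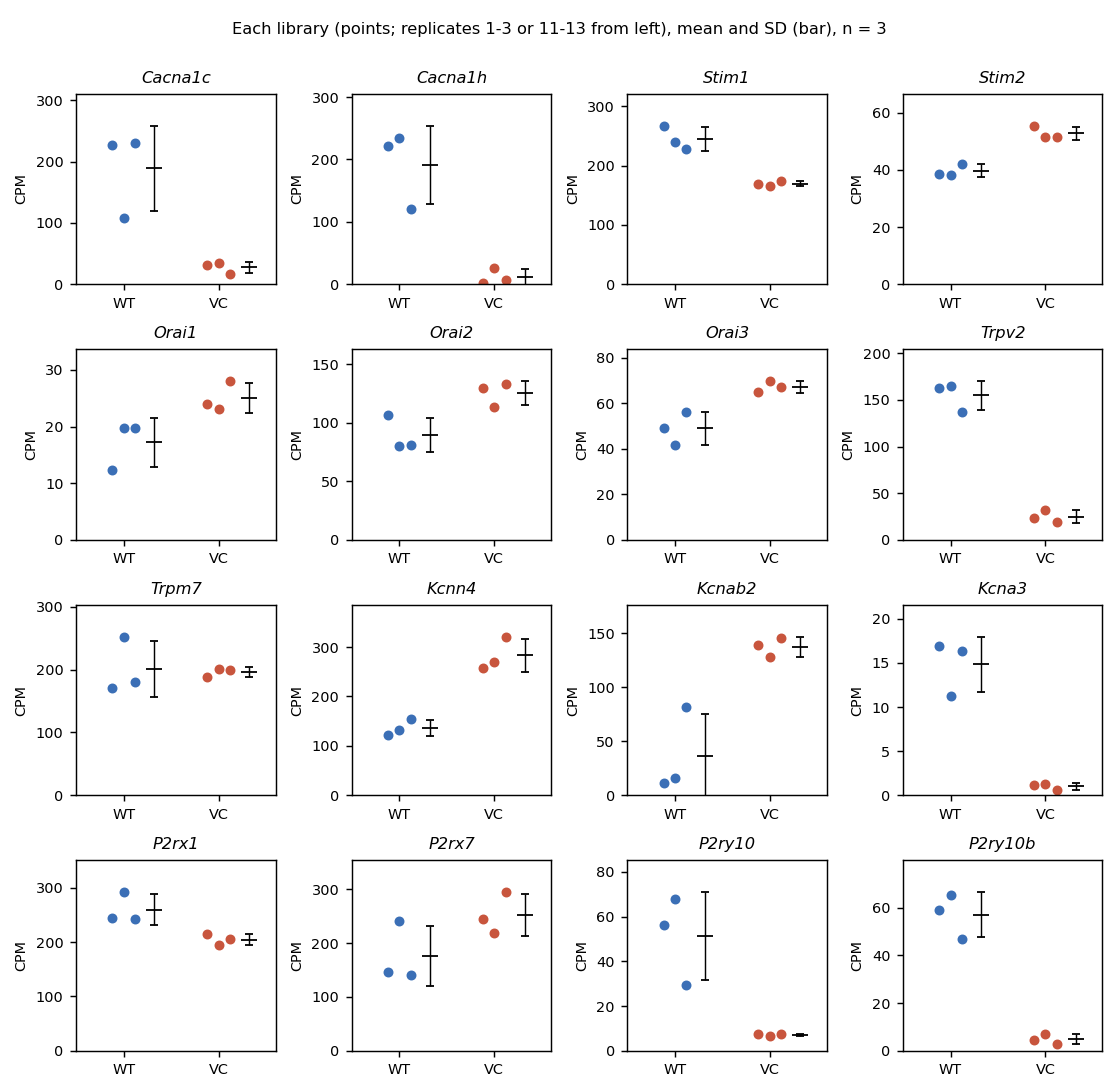
Scaled counts (CPM, each vertical axis starting at 0) of 16 members are drawn as a point per library, WT replicates 1 to 3 in blue and VC replicates 11 to 13 in red, with the mean and SD (n = 3) in black, cut at 0. The WT and VC points of Cacna1c, Cacna1h, Trpv2, Kcna3, P2ry10 and P2ry10b lie far apart, those of Stim1 and Stim2 lie apart in opposite directions, those of Trpm7 and P2rx7 overlap, and WT replicate 3 of Kcnab2 lies between its group and VC.

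Genes for calcium release, pumping and signalling beside the Orai and Stim members were read from a separate list. Of 26 tested, 2 rose and 9 fell (42.3%, against 44.2% of all genes), with a median log2 fold change of -0.26, beside 0.013 for all genes. Plcg1, a phospholipase that makes the messenger that opens store channels, fell from 3712, 3089 and 2948 to 458, 552 and 394 counts (-2.93 ± 0.16 SE, adjusted p = 2.84e-05). Nfatc1, a calcium-regulated transcription factor, fell as well (-1.33 ± 0.078 SE, adjusted p = 3.73e-05). The store release channel Itpr1 (1.13 ± 0.33 SE, adjusted p = 0.0270) and the plasma membrane calcium pump Atp2b4 (1.19 ± 0.16 SE, adjusted p = 0.00100) rose.

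TRP channels, a family of cation channels opened by lipids, heat or ligands, held 1 member that rose and 3 that fell among 6. Together these were 66.7%, beside 44.2% of all genes. Trpv2, a calcium-permeable channel found in myeloid cells and the most abundant TRP member in WT, had 2510, 2425 and 2265 counts in WT and 402, 547 and 320 in VC. The groups lay far apart, with a 6.22-fold lower level in VC (log2 fold change -2.64 ± 0.19 SE, adjusted p = 6.75e-05). Trpm7, a channel fused to a kinase and known for magnesium transport, had 2631, 3721 and 2981 against 3178, 3455 and 3350 counts and overlapped between groups (-0.038 ± 0.15 SE, adjusted p = 0.859). The ratio of Trpm7 to Trpv2 in FPKM was therefore 0.415, 0.608 and 0.522 in WT and 3.13, 2.50 and 4.15 in VC. Trpv2 made up 60.9% of the summed TRP level of 56.5 ± 6.93 FPKM in WT and 20.8% of 26.1 ± 1.62 FPKM in VC (SD, n = 3).

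Trpm2, a channel opened by ADP-ribose and oxidative stress, had 465, 545 and 309 counts in WT and 216, 213 and 47 in VC (log2 fold change -1.62 ± 0.51 SE, adjusted p = 0.0345). That call was lost without WT replicate 1 (adjusted p = 0.0775), WT replicate 2 (0.0847) or VC replicate 12 (0.0558). Trpm5, a calcium-activated channel of taste cells, had 33, 35 and 15 against 10, 10 and 11 counts (-1.55 ± 0.43 SE, adjusted p = 0.0218), and held its call only when WT replicate 3 was the library left out (adjusted p 0.0569 to 0.0733 without any other). limma on log2(FPKM + 1) did not call Trpm5 either (adjusted p = 0.0786). Trpv5, a calcium-selective channel of kidney, rose from 28, 19 and 35 to 123, 88 and 93 counts (1.77 ± 0.29 SE, adjusted p = 0.00224). Trpm4 (-0.59, adjusted p = 0.152) overlapped between the groups, as did Trpc4ap, named for binding a TRP channel but not a channel itself (-0.044, adjusted p = 0.667). Without VC replicate 13, Trpm4 was lower at an adjusted p of 0.0346.

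Piezo1, the stretch-activated cation channel, and Hvcn1, the voltage-gated proton channel, were both higher in VC. Piezo1, at 26.2 ± 0.266 FPKM in WT and 36.9 ± 2.61 in VC, had 4008, 3916 and 4315 counts against 5777, 6530 and 6594 (log2 fold change 0.50 ± 0.087 SE, adjusted p = 0.00292). Hvcn1 had 49, 94 and 56 against 173, 141 and 159 counts (1.11 ± 0.30 SE, adjusted p = 0.0201), without overlap. The Hvcn1 call was lost without WT replicate 1 or 3 or VC replicate 11 or 13 (adjusted p 0.0520 to 0.0656). As the library kit named is not one that marks strand, reads in bases shared with a gene on the opposite strand cannot be assigned, and this holds for 44.2% of the exonic bases of Hvcn1 (Tctn1, log2 fold change 0.39) and 24.6% of those of Piezo1 (Ctu2, 0.095). Among 8 other cation channel genes tested, lysosomal ones included, 1 rose, the endolysosomal channel gene Tpcn1 (0.56, adjusted p = 0.00562), and 6 fell, among them the stretch-gated Tmem63b (-1.47, adjusted p = 0.00122), with a median of -0.60. These 7 calls were 87.5% of the 8, beside 44.2% of all genes, whose median was 0.013.

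The ClC family showed a shift between members with little change in its sum, 58.5 ± 5.50 FPKM in WT and 56.7 ± 0.740 in VC (SD, n = 3). Clcn5, an endosomal exchanger known from kidney, fell from 757, 984 and 647 to 251, 303 and 230 counts (log2 fold change -1.75 ± 0.21 SE, adjusted p = 0.000523). Clcn6, a late endosomal exchanger, fell from 752, 949 and 797 to 393, 409 and 424 (-1.16 ± 0.13 SE, adjusted p = 0.000480). Clcn2, the member that acts as a plasma membrane chloride channel, rose from 378, 407 and 464 to 892, 797 and 854 (0.90 ± 0.10 SE, adjusted p = 0.000445). For these 3 genes the groups did not overlap and no left-out library ended a call. They were 50% of the 6 ClC members, beside 44.2% of all genes that were called. Without overlap were 4 of the 6, beside 57.3% of all genes.

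Clcn3, an endosomal exchanger and the most abundant ClC member, had 4595, 4809 and 4372 counts against 6136, 6149 and 5976. The groups did not overlap, yet the adjusted p was 0.0527 (log2 fold change 0.27 ± 0.098 SE), and it was 0.0193 without WT replicate 2, 0.0475 with at least 10 counts in every library and 0.00717 with total counts as the scale (0.43). Clcn7, the lysosomal exchanger (0.049, adjusted p = 0.762), and Clcn4 (-0.17, adjusted p = 0.201) overlapped between groups, and Clcn4 was lower at an adjusted p of 0.0400 without WT replicate 2. Clcn2 made up 7.59% of the ClC level in WT and 14.4% in VC, Clcn6 15.3% and 7.07%, and Clcn5 7.58% and 2.34%. Of 11 other anion channel and partner genes tested, 4 rose, led by the volume-regulated channel subunit Lrrc8d (3.29, adjusted p = 6.26e-05) and Ano10 (2.28, adjusted p = 0.0175), and 1 fell, Lrrc8b (-0.84, adjusted p = 0.000283), with a median of 0.16. These 5 calls are 45.5% of the 11, near the 44.2% of all genes.

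**Figure D4:**
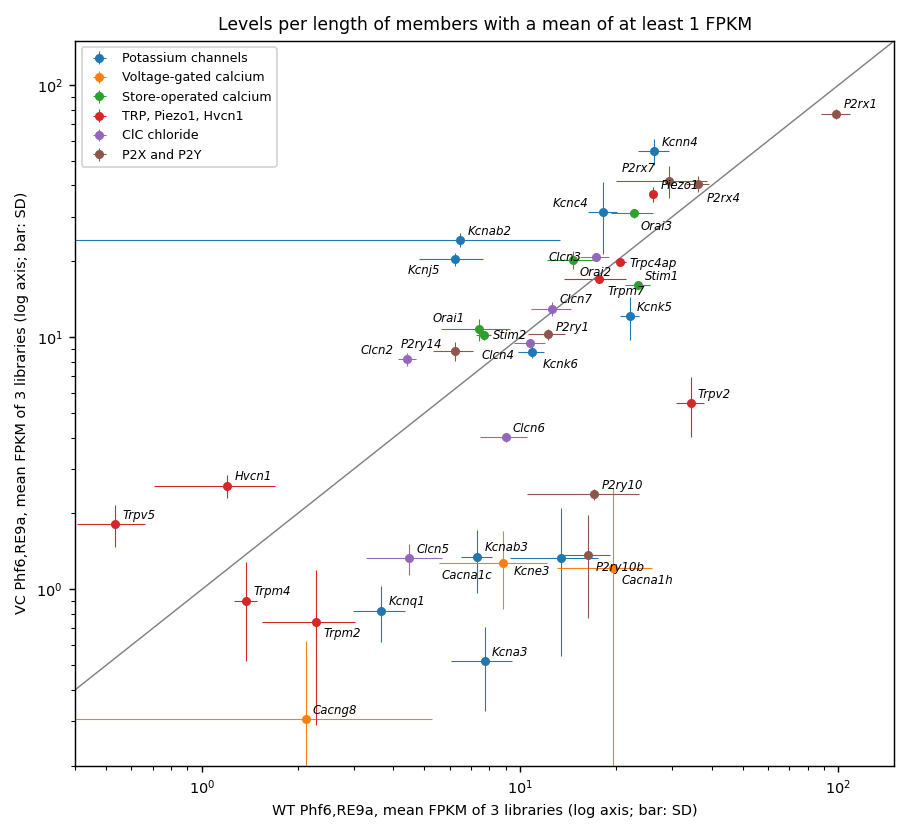
Mean level per length in FPKM of the 39 members with a mean of at least 1 FPKM, WT on the horizontal and VC on the vertical axis, both logarithmic, with SD bars (n = 3) that are cut where they pass the axis, coloured by family. Points on the grey line have equal means. P2rx1 is the most abundant at the upper right, near the line, and Trpv2, Cacna1h, Cacna1c, P2ry10, P2ry10b, Kcne3 and Kcna3 lie well under it.

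Of the 9 purinergic receptor members, 1 rose and 3 fell, a share of 44.4% beside the 44.2% of all genes. P2rx1, an ATP-gated channel known from platelets and smooth muscle, was the most abundant of all 59 members, at 98.4 ± 10.5 FPKM in WT and 77.0 ± 3.56 in VC (SD, n = 3). Its counts were 3765, 4310 and 4018 in WT and 3631, 3335 and 3456 in VC, without overlap, but the difference was small (log2 fold change -0.35 ± 0.10 SE, adjusted p = 0.0256). It was lost without VC replicate 11 (adjusted p = 0.0614), 12 (0.0983) or 13 (0.0745), and with total counts as the scale (-0.20, adjusted p = 0.144).

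No difference in the other P2X receptors passed the main test, but P2rx4 (log2 fold change 0.33, adjusted p = 0.0277) and P2rx7 (0.67, adjusted p = 0.0309) passed with total counts as the scale, and P2rx7 also with no count filter (0.51, adjusted p = 0.0499). P2rx4, a receptor with a lysosomal pool, had 3887, 4110 and 3917 counts against 4652, 4772 and 5307 (log2 fold change 0.18 ± 0.099 SE, adjusted p = 0.189). P2rx7, which gates inflammasome activation in macrophages, had 2256, 3549 and 2339 against 4142, 3750 and 4962 counts (0.52 ± 0.22 SE, adjusted p = 0.0867). WT replicate 2 was its high library, and P2rx7 was higher by 0.80 (adjusted p = 0.00381) without it. P2rx5 had 11, 2 and 3 against 14, 13 and 17 counts (1.31 ± 0.59 SE, adjusted p = 0.108), and 2.38 (adjusted p = 0.0165) without WT replicate 1. The summed P2X level was 164 ± 22.5 FPKM in WT and 160 ± 10.2 in VC, with P2rx1 at 60.1% and 48.3% of it.

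P2ry10 and P2ry10b, neighbouring receptor genes on the X chromosome whose product P2Y10 is known as a receptor for lysophosphatidylserine, fell together. P2ry10 (chrX:107088492-107104974, plus strand) had 870, 1001 and 488 counts in WT and 125, 116 and 126 in VC, 7.11-fold lower (log2 fold change -2.83 ± 0.30 SE, adjusted p = 0.000308). P2ry10b (chrX:107148927-107173661, plus strand) had 908, 964 and 773 against 74, 121 and 50, 11.9-fold lower (-3.57 ± 0.30 SE, adjusted p = 0.000119). WT replicate 3 was lowest of its group for both, and still more than 3 times any VC library. Only 3.79% of the 50-base words of P2ry10 and 3.27% of those of P2ry10b were shared with the other, so reads of one would seldom fit the other equally well.

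The windows of 250 bases before the starts of this pair are given because both genes fell, and they show how far their upstream sequences differ. They are chrX:107088242-107088491 for P2ry10 and chrX:107148677-107148926 for P2ry10b in GRCm38.p6, plus strand, from RefSeq, 5′ to 3′, with no capitals since neither holds TGTGGT on either strand.
P2ry10: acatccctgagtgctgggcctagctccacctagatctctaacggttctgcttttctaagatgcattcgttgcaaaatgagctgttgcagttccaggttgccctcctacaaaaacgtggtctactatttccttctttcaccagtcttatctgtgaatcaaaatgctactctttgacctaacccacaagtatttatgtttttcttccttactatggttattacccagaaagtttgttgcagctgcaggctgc
P2ry10b: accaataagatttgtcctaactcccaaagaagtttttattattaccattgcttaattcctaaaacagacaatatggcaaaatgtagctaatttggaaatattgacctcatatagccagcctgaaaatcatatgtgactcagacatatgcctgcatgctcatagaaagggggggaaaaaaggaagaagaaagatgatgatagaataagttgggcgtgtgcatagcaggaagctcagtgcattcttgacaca
A global alignment placed 128 of the 250 bases (51.2%) as identical, and the longest run shared by both windows was 8 bases. A separate RefSeq start of P2ry10 has a window from base 107089083 with 2 TGTGGT matches.

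The other 3 P2Y members lie on chromosome 3. P2ry14, a receptor for UDP-sugars, had 1088, 1157 and 971 counts in WT and 1640, 1556 and 1826 in VC, with no overlap (log2 fold change 0.51 ± 0.12 SE, adjusted p = 0.0128). P2ry1, an ADP receptor, had 843, 665 and 972 against 711, 778 and 785 counts and overlapped (-0.24 ± 0.12 SE, adjusted p = 0.127), though it was lower at an adjusted p of 0.0183 without WT replicate 2. Of its exonic bases, 23.1% are shared with Gm37035 on the opposite strand. P2ry13, another ADP receptor, had 2, 14 and 8 against 23, 12 and 7 counts (0.66, adjusted p = 0.465).

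With P2ry10 and P2ry10b down and P2ry14 up, the order of P2Y levels changed. The ratio of P2ry14 to P2ry10 in FPKM was 0.337, 0.312 and 0.537 in WT and 3.54, 3.62 and 3.91 in VC, and the groups did not overlap. The summed P2Y level was 52.2 ± 8.88 FPKM in WT and 23.2 ± 0.626 in VC (SD, n = 3), of which P2ry1 held 24.3% and 44.3%, P2ry14 11.98% and 38.0%, P2ry10 31.9% and 10.3%, and P2ry10b 31.4% and 5.93%. In VC, P2ry1 at 10.3 ± 0.541 FPKM and P2ry14 at 8.80 ± 0.759 FPKM were the main P2Y transcripts.

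Near P2ry14, the related orphan receptor gene Gpr171 had 815, 753 and 580 counts in WT and 55, 37 and 29 in VC (log2 fold change -4.28 ± 0.27 SE, adjusted p = 4.50e-05), and Med12l, whose span on the opposite strand contains P2ry14, had 675, 1296 and 493 against 220, 269 and 292 (-1.81 ± 0.37 SE, adjusted p = 0.00603). Both were named after their values were seen, and both moved opposite to P2ry14. Among 13 tested genes of a list for extracellular nucleotide and adenosine handling, 2 rose and 7 fell. Together these were 69.2%, beside 44.2% of all genes, and the median was -0.39, beside 0.013 for all genes. That list also holds the receptor genes Gpr171 and Gpr34, both among the 7. The share and median are therefore not those of nucleotide and adenosine genes alone. The largest falls were Gpr34, another lysophosphatidylserine receptor, with 171, 125 and 190 counts in WT and 2, 1 and 0 in VC (adjusted p = 6.00e-05), and the adenosine receptor gene Adora2a, with 425, 411 and 241 against 6, 15 and 14 (-5.07 ± 0.40 SE, adjusted p = 0.000101). Those that rose were Entpd3, an ectonucleotidase (0.62, adjusted p = 0.00846), and Ada, adenosine deaminase (0.33, adjusted p = 0.0426).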

How the data were processed

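Per the labels and the study's methods, RNA was made into TruSeq libraries and read as 150 bp pairs. The authors deposited 1 table of 54532 genes with raw read counts and FPKM values for 6 libraries. Its further columns (mean normalized counts, log2 fold change and p-values of their DESeq2 comparison) were not used. The submitters' notes name Bowtie 0.12.0 and mm8 without a role, but 98.26% of shared gene identifiers have the coordinates of GENCODE M21 (GRCm38), as do 57 of the 59 members, Kcnk7 and Kcnk12 being the exceptions. The counting tool and its strand setting are not given in the sources used here.

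Counts were tested with edgeR 4.0.16 (TMM, filterByExpr, glmQLFit, glmQLFTest, Benjamini-Hochberg over 14169 genes) in R 4.3.3, VC over WT, with no covariate. Tests were checked on simulated counts. CPM are TMM-scaled, and levels are compared between genes in FPKM only. An exact permutation test of 3 against 3 cannot go below p = 0.1 and was not used. No 2 libraries of a group agreed within sampling noise (11.8 to 46.4 chi-square units per gene). Alternatives were DESeq2 1.42.0, RLE factors, other count filters, limma 3.58.1 on log2(FPKM + 1), each library left out, another minimum or fold, and pores and receptors only. Total-count scaling was added after the data were seen. Named were, per role, members past 2-fold and the threshold, the most abundant member, and all store-operated, proton, mechanosensitive, P2X and P2Y members, with up to 2 further examples and the 2 largest changes each way per companion list. Where few members were left over they were named too. Members and lists were chosen with earlier results of these data known. RefSeq windows of 250 bases were searched on both strands. A few genes that enter the counts are not reported here by name.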

Additional observations from a re-analysis of the deposited data

How the results depend on the processing

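The counts of 19 higher and 19 lower members ranged over the 6 fits without 1 library from 14 to 19 and from 15 to 18. With at least 2-fold asked for, 12 were higher and 15 lower. DESeq2 called 19 and 18 (17 and 18 of them shared), RLE factors 19 and 19, total counts 23 and 17, no count filter 20 and 18, at least 10 counts in every library 15 and 18, and limma on log2(FPKM + 1) 18 and 18. A minimum of 30 counts gave 20 and 20, one of 120 gave 17 and 18, and pores and receptors alone 15 and 14. Total counts shift the median log2 fold change of all genes to 0.16. No direction of a called member turned in any alternative. Among the members named here, directions turned for some that did not pass. With total counts this held for Trpm7 (0.11) and Trpc4ap (0.11), and leaving out 1 library gave ranges that cross 0 for Trpm7 (-0.15 to 0.15), Clcn7 (-0.046 to 0.16), Kcnj10 (-0.41 to 0.0094), Cacng8 (-4.05 to 0.046), Kcng3 (-0.81 to 0.039) and Kcnip4 (-0.33 to 0.35). No paired analysis was possible because the groups share no replicate numbers. Members under about 100 counts rest on few reads, and the cause of these changes was not tested.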

Other observations

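Of the 116 family genes below the minimum, 64 had at least 1 count. Among P2X genes these were P2rx3, with 0, 5 and 2 counts in WT and 17, 8 and 18 in VC, P2rx2 with 16 counts in all and P2rx6 with 2. Of the P2Y genes, P2ry12, the platelet ADP receptor, had 3, 13 and 4 counts in WT and 14, 3 and 2 in VC, P2ry6 had 28 and P2ry2 14 in all, and P2ry4 was at 0. None of these was tested.

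Antisense and overlapping transcripts named after channel genes were not members. Kcnq1ot1, a long noncoding RNA read from within Kcnq1 on the opposite strand (chr7:143203458-143296549), had 563, 503 and 554 counts in WT and 557, 542 and 839 in VC (log2 fold change 0.13 ± 0.18 SE, edgeR adjusted p = 0.580), and 3.0% of the exonic bases of Kcnq1 are shared with it. Kcnmb4os2 and Kcnab3os had 7 and 4 counts in all, and Kcnd3os and Kcnmb4os1 were at 0.

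Other short sequences were counted in the same windows on both strands, and none of those searched contains another. AGGAAG, the core bound by ETS factors, was in 29.5% of all windows and 39.1% of member windows. AGATAA, bound by GATA factors, was in 9.99% and 10.1%, and the E-box CAGCTG in 4271 of 32851 windows and in 7.25%. The members had 69 windows, so each is a small count and is given as a description.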
